A study of Mus musculus with 9 samples.

Results

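Ribosome biogenesis begins in the nucleolus, where RNA polymerase I copies the ribosomal DNA into a long precursor. Small nucleolar RNAs carried by 2 kinds of protein particle, box C/D and box H/ACA, guide its methylation and its change of uridine to pseudouridine, and assembly factors fold, cut and export the small and large subunits. The pathway is known for its high activity in growing tumour cells and its low activity in resting lymphocytes, and MYC is a known activator of many of its genes. The genes described here are 40 named ribosome biogenesis and nucleolar factors, chosen by symbol out of the 54838 genes counted, and all 40 were found. They fell into 6 roles: 5 genes of RNA polymerase I, 4 box C/D and 4 box H/ACA particle proteins, 5 nucleolar scaffold and chaperone proteins, 11 small subunit and 11 large subunit assembly factors.

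The libraries came from B16F10, a mouse melanoma line of the C57BL/6 strain, and from CD8+ T cells of the spleens of adult C57BL/6 mice. Cells stood in medium for 5 h without addition or with 600 µM hypochlorous acid (HOCl), the oxidant that neutrophil myeloperoxidase makes from hydrogen peroxide and chloride, and the series asked how it changes their transcripts. B16F10 gave 6 libraries, 3 per condition, and T cells gave 3, of which 1 had received HOCl. No label gives a genetic change, a vehicle or separate cultures or mice for the replicates. A p-value here is therefore relative to library-to-library spread, some of it possibly technical.

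B16F10 libraries held 45.9 to 61.3 M gene counts, untreated T cell libraries 49.9 and 52.1 M, and the T cell HOCl library 12.8 M. All values below are counts per M of a library's gene counts (CPM). The summed CPM of 7 melanocyte genes was 24046 to 25084 in B16F10, and that of 10 T cell genes 5644 and 7051 in untreated T cells, so both cell types carried their own markers. Untreated T cells also held 5 B cell genes at 1260 and 2358 CPM in sum. B16F10 HOCl replicate 3 had T cell genes at 49.8 CPM and B cell genes at 16.03 CPM in sum, against at most 8.35 and 1.06 CPM in the other 5 B16F10 libraries. The library labelled T cell HOCl had 37.4% mitochondrial counts, T cell genes at 781 CPM and melanocyte genes at 6711 CPM, against 25.6 and 101 CPM of the latter in untreated T cells. It went into neither main test, and entered only the alternative fit of all 9 libraries.

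In untreated B16F10 the 40 genes together took 0.753 to 0.781% of all counts. Per kilobase of the principal transcript, Npm1 stood first at 725 CPM per kb, followed by Ncl at 173, Nhp2 at 169, Nop56 at 156 and Nop58 at 149 CPM per kb. The library ranges of neighbours among the last 4 overlapped. The only principal transcript annotated for Ncl has 8202 bases, which sets its place in this order. Most assembly factors stood lower, down to Utp20 at 12.5 and Rrp1b at 10.7 CPM per kb. Wdr74, a large subunit factor, was listed between 0 and 0.196 CPM in every B16F10 library, at or near the 0.0489 to 0.0654 CPM that 3 counts give there. It was the 1 gene of the 40 that the filter on low counts left out of both tests, and the cause of its near absence was not tested.

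After HOCl, B16F10 cells had less mRNA, as a share of the library, for 7 of the 8 proteins of the small nucleolar particles. The same held for the nucleolar proteins Ncl, Npm1 and Nolc1, while 19 of the 21 subunit assembly factors tested did not pass the test. Of the 39 genes tested, 13 fell and 0 rose with edgeR's quasi-likelihood test and Benjamini-Hochberg adjustment over 16082 genes, at a threshold of 0.05. Of all genes tested, 13.5% fell and 14.7% rose. The 13 changes were small, from -0.40 for Nop58 to -0.16 for Ltv1 on the log2 scale. The median over the 39 genes was -0.03, against -0.01 over all genes tested. At an unadjusted p under 0.05, 3 of the 39 were higher and 16 lower, and DESeq2 called 1 higher (Ubtf) and 13 lower. The shares of all genes at these 2 settings are not given here. These counts are therefore not to be read against 13.5% and 14.7%, and do not set the 39 genes apart. The CPM ranges of the 2 groups did not overlap, with HOCl lower, for 15 of the 39 (18.4% of all genes tested) and, with HOCl higher, for 6 (25.2% of all genes tested).

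The falls were unevenly spread over the roles. Among the 8 particle proteins 7 fell, with log2 changes from -0.40 to -0.15 and a median of -0.25. Among the 21 assembly factors tested 2 fell, with log2 changes from -0.17 to 0.14 and a median of 0.01. The difference between these roles is a description and was not tested. Without TMM scaling the counts became 6 of 8 and 2 of 21, and 3 genes (Nop2, Ubtf and Utp4) then rose. With the spread shared between both cell types, in fits of all 9 libraries or of 8, none of the 13 calls passed, and 1 and 2 genes stayed lower at an unadjusted p under 0.05. None passed against a 1.5-fold change (edgeR's glmTreat), adjusted or not.

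**Figure D1:**
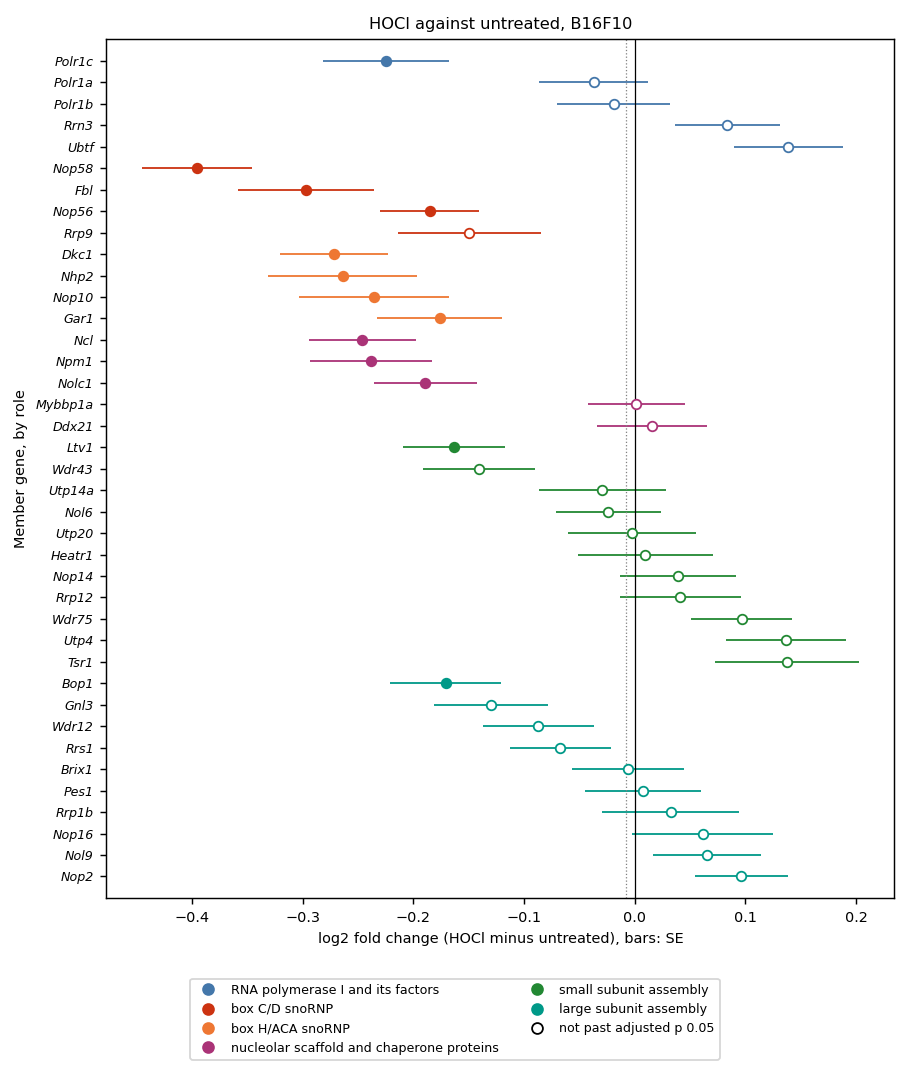
log2 fold change (HOCl minus untreated, x axis) of the 39 tested genes in B16F10, ordered by role, with bars of 1 standard error; filled points passed an adjusted p of 0.05, open points did not, and the dotted line is the median of all genes tested. All 8 box C/D and box H/ACA points lie left of 0 and 7 are filled, whereas most points of the assembly factors lie around 0 and are open.

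Box C/D particle proteins carry guide RNAs that place methyl groups on ribosomal RNA. Nop58, a core protein of every such particle (chromosome 1, 59684971 to 59719044, GRCm38), stood at 266, 247 and 251 CPM in untreated B16F10 and at 190, 203 and 199.5 CPM after HOCl. The groups were far apart, with means of 255 ± 10.1 and 198 ± 6.92 CPM (SD, n = 3 each). This was the largest fall of the 40 genes, to 0.760 of the untreated level (log2 change -0.40 ± 0.05 SE, edgeR adjusted p = 0.000151). The methyltransferase of the particle, Fbl (chromosome 7, 28169710 to 28179269), was at 142, 121 and 124 CPM without and 108, 108 and 105 CPM with HOCl. Every HOCl library was below every untreated one, and the log2 change was -0.30 ± 0.06 SE (edgeR adjusted p = 0.00370). Nop56, the partner of Nop58 and the most abundant gene of the group, moved less, from 303, 288 and 290 CPM to 263, 267 and 260 CPM (log2 change -0.19, edgeR adjusted p = 0.00868). Rrp9, a protein of the particle that guides early cutting of the precursor, did not pass the test (log2 change -0.15 ± 0.06 SE, edgeR adjusted p = 0.108).

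Box H/ACA particle proteins carry the guides for pseudouridine and are also part of telomerase, and all 4 fell. Dkc1, the pseudouridine synthase (chromosome X, 75095854 to 75109777), was at 138, 137 and 130 CPM without and 110, 116 and 116 CPM with HOCl. The ranges were clearly apart, and the log2 change was -0.27 ± 0.05 SE (edgeR adjusted p = 0.00152). Nhp2, an RNA-binding partner of Dkc1 (chromosome 11, 51619735 to 51623714), was at 195, 164 and 169 CPM without and 156, 151 and 141 CPM with HOCl. Untreated replicate 1 stood above the other untreated libraries, and the lowest untreated value was still above the highest HOCl value (log2 change -0.26 ± 0.07 SE, edgeR adjusted p = 0.0117). The other two, Nop10 and Gar1, fell by 0.24 and 0.18 on the log2 scale.
The 120 bases before the RefSeq start of a box C/D and a box H/ACA gene that fell are printed here because both hold the same ETS-type motif, in capitals together with GC boxes and CCAAT boxes. In the same stretch Nop56, Dkc1 and Ncl, which also fell, hold no such ETS-type motif.
Nop58, chr1:59684886-59685005, plus strand: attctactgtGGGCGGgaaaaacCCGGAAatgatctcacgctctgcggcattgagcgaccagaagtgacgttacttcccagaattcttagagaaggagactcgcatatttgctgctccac
Nhp2, chr11:51619653-51619772, plus strand: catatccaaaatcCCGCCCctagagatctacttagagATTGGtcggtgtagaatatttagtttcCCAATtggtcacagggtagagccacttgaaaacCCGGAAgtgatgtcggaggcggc

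Of the 5 scaffold and chaperone proteins 3 fell, among them the 2 most abundant genes of the 40. Ncl encodes nucleolin, which binds the nascent precursor (chromosome 1, 86344719 to 86359400). It was at 1471, 1423 and 1372 CPM in untreated B16F10 and at 1172, 1220 and 1273 CPM after HOCl, ranges that did not overlap (log2 change -0.25 ± 0.05 SE, edgeR adjusted p = 0.00266). Npm1 encodes nucleophosmin, a chaperone of the granular nucleolus (chromosome 11, 33152287 to 33163206). Its values were 1284, 1150 and 1118 CPM without and 1013, 1035 and 1021 CPM with HOCl, and the spread was much narrower in the HOCl group (log2 change -0.24 ± 0.05 SE, edgeR adjusted p = 0.00686). Nolc1, a chaperone of both kinds of particle, fell by 0.19 (edgeR adjusted p = 0.00959). The helicase Ddx21 and the nucleolar protein Mybbp1a had log2 changes of 0.02 and 0.00, with edgeR adjusted p of 0.848 and 0.985.

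Among the 5 RNA polymerase I genes 1 fell and 0 rose, against 13.5% and 14.7% of all genes tested. Polr1c, a subunit shared with RNA polymerase III, fell from 69.6, 64.1 and 63.3 CPM to 58.8, 57.6 and 55.4 CPM (log2 change -0.22 ± 0.06 SE, edgeR adjusted p = 0.0116). The catalytic subunits did not pass the test. Polr1a, the largest subunit, was at 239, 259 and 264 CPM without and 246, 254 and 257 CPM with HOCl. Polr1b, the second-largest, was at 68.6, 71.8 and 72.8 CPM and at 69.3, 71.9 and 73.3 CPM, so the groups overlapped for both. Ubtf, which coats active ribosomal DNA, was at 221, 202 and 208 CPM without and 240, 237 and 231 CPM with HOCl, ranges that did not overlap. Its log2 change of 0.14 ± 0.05 SE narrowly missed the threshold (edgeR adjusted p = 0.0536), and the authors' deposited table lists it as positive with an adjusted p of 0.0362. Rrn3, which brings the polymerase to the promoter, was at 124, 131 and 133 CPM without and 139, 142 and 139 CPM with HOCl (log2 change 0.08 ± 0.05 SE, edgeR adjusted p = 0.212).

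Of the 11 small subunit factors only Ltv1, a factor in export and final maturation, fell. It was at 90.6, 90.8 and 89.9 CPM without and 81.9, 81.8 and 83.1 CPM with HOCl, and the replicates of each group lay close together (log2 change -0.16 ± 0.05 SE, edgeR adjusted p = 0.0194). Nol6, an early factor, had the highest CPM of the small subunit factors. Per kilobase it stood below Ltv1 in untreated B16F10, at 29.2 against 39.4 CPM per kb. Nol6 was at 135, 131 and 136 CPM without and 130, 135 and 139 CPM with HOCl, with full overlap of the groups. Utp14a, a factor that activates a processing helicase, was at 33.1, 32.2 and 34.2 CPM and at 32.9, 33.6 and 32.9 CPM, again overlapping. Among the other members of the large early complex, Wdr43 had a log2 change of -0.14 and Utp4 one of 0.14, with edgeR adjusted p of 0.0564 and 0.0802. Heatr1, Utp20, Nop14 and Rrp12 had log2 changes between 0.00 and 0.04, with standard errors of 0.05 to 0.06.

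Of the 10 large subunit factors tested only Bop1 fell. Bop1, Pes1 and Wdr12 form a complex needed for precursor cutting. Bop1 was at 187, 171 and 176 CPM without and 162, 165 and 158 CPM with HOCl (log2 change -0.17 ± 0.05 SE, edgeR adjusted p = 0.0232). Its partners did not pass the test, with a log2 change of -0.09 ± 0.05 SE for Wdr12 and 0.01 ± 0.05 SE for Pes1. Nop2, a methyltransferase of the large subunit RNA and the most abundant large subunit factor, was at 291, 289 and 293 CPM without and 318, 314 and 317 CPM with HOCl. Every HOCl library of Nop2 lay above every untreated one, but its log2 change of 0.10 ± 0.04 SE did not pass (edgeR adjusted p = 0.1104). Rrs1, which helps to build the central protuberance of the large subunit, was at 163, 174 and 168 CPM and at 162, 164 and 164 CPM, with overlap (log2 change -0.07).

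**Figure D2:**
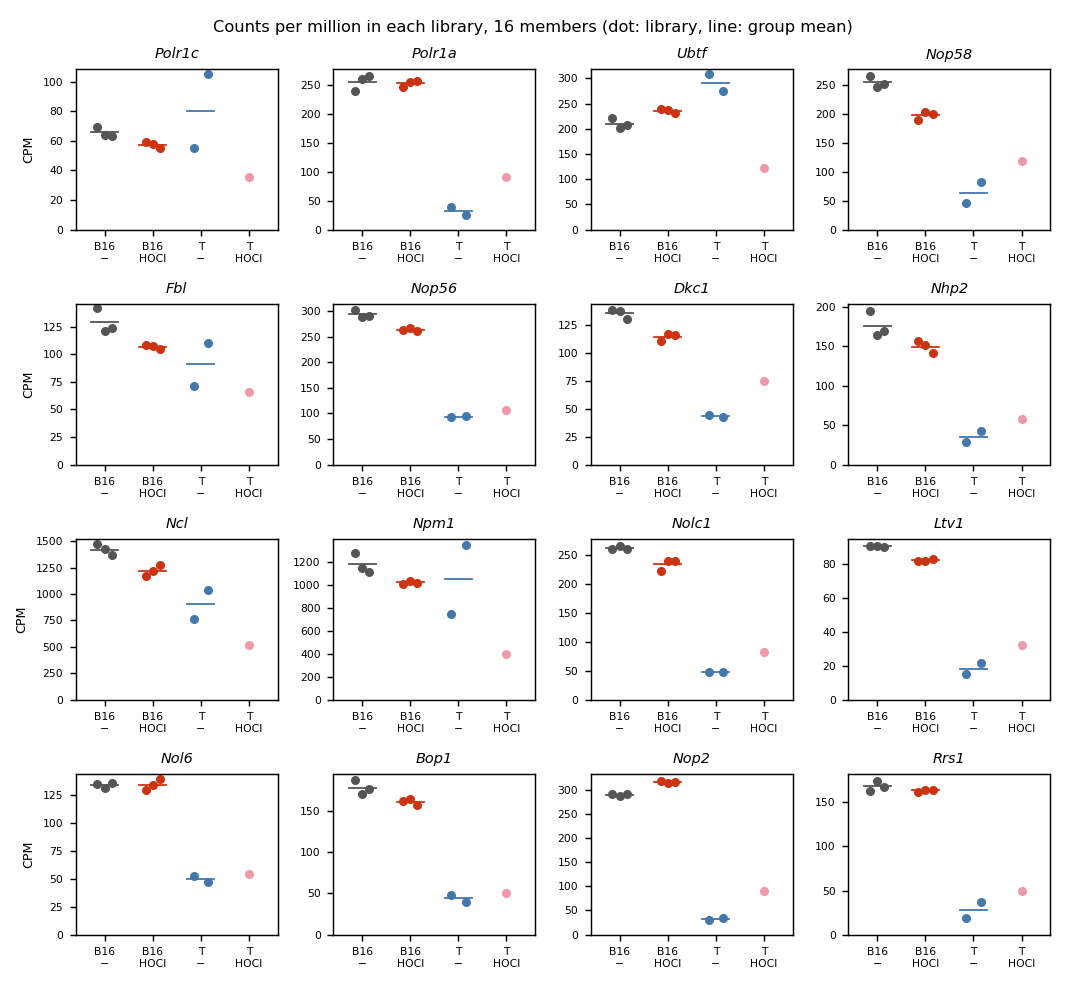
CPM (y axis, from 0) in each library for 16 of the genes, with 1 dot per library and a line at the mean of each group of 2 or 3; from left to right stand B16F10 without and with HOCl and T cells without and with HOCl. The B16F10 groups lie apart for Nop58, Fbl, Dkc1, Ncl and Ltv1 and mix for Polr1a and Nol6, and the single T cell HOCl dot carries no replicate error.

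Of the 13 calls, 5 (Nop58, Ncl, Dkc1, Fbl and Npm1) passed in each of the 6 fits that left out 1 library. The count of falls was 6 without HOCl replicate 3, the library with T cell and B cell transcripts, and 8 without HOCl replicate 1. Without HOCl replicate 3, Nhp2, Nop10, Nop56, Polr1c, Bop1, Gar1 and Ltv1 lost the call. Their log2 changes in that fit were still -0.22 for Nhp2, -0.20 for Nop10 and Polr1c, -0.19 for Gar1, -0.17 for Nop56 and Ltv1 and -0.15 for Bop1, with edgeR adjusted p of 0.0525 to 0.111 and 1 library fewer. Of the 40 genes, the authors' deposited table lists 13 as negative and 1 as positive at an adjusted p under 0.05, and 14.7% of its genes with an adjusted p as negative. The 13 negative genes were the same 13.

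Transcript length moved with these changes. Of all genes tested, those with a principal transcript under 1500 bases fell in 22.9% and rose in 5.73% of cases (median log2 change -0.13). Those of 5000 bases or more fell in 11.8% and rose in 25.4% (median 0.08). All 5 tested genes of the 40 under 1500 bases fell (Nhp2, Nop10, Fbl, Gar1 and Polr1c), as did 6 of 18 between 1500 and 3000 bases, 1 of 12 between 3000 and 5000 bases (Nolc1) and 1 of 4 above (Ncl). Across the 39 genes, Spearman's correlation of log2 change with length was 0.441, and 0.211 across 12703 tested genes, both as descriptions across genes that share the same 6 libraries. In a fit with each library's trend over length as an offset, chosen after seeing the data, 12 of the 13 stayed lower and Gar1 lost the call (edgeR adjusted p = 0.268). Nop58, Dkc1 and Ncl then had log2 changes of -0.34, -0.30 and -0.33. Both the length class of Ncl and its offset rest on its only annotated principal transcript, of 8202 bases. The falls of 4 short genes shrank, to -0.19 for Fbl, -0.14 for Nhp2, -0.13 for Polr1c and -0.12 for Nop10. With that offset Polr1a, Wdr43 and Wdr12 also fell and Utp4 rose, so that 6 of 8 particle proteins and 4 of 21 assembly factors were lower.

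**Figure D3:**
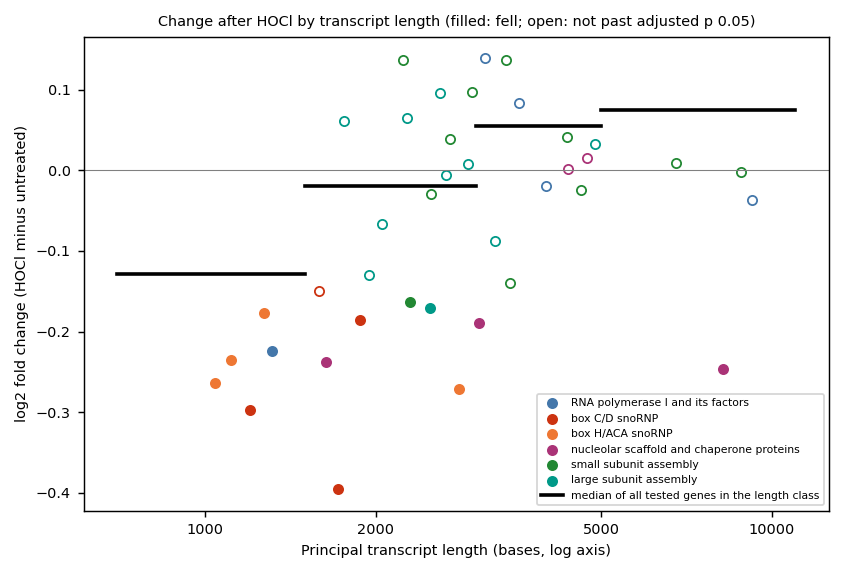
log2 fold change in B16F10 (HOCl minus untreated, y axis) against the length of the principal transcript in bases (log x axis) for the 39 tested genes, coloured by role; black bars are the medians of all tested genes in 4 length classes. The bars rise from -0.13 under 1500 bases to 0.08 at 5000 bases or more, and Nop58, Dkc1 and Ncl lie well below the bar of their class. Ncl is placed by its only annotated principal transcript, of 8202 bases.

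MYC binds the E-box CACGTG, so promoters were searched for it on both strands, in windows of 250 bases before to 50 bases after the RefSeq start (GRCm38.p6). Of the 40 genes 34 had a window. An E-box stood in 1 of 10 genes that fell (Ltv1) and in 8 of 23 that did not pass the test, against 11.5% of tested genes and 8.09% of all genes in the table. The windows below show it in capitals for the gene that fell and for 3 that did not, Nop2, Utp4 and Rrn3, all with positive log2 changes. Of the others with an E-box, Wdr43 had a log2 change of -0.14 and Tsr1 one of 0.14. Utp20, Pes1 and Mybbp1a, which also hold one, had -0.002, 0.007 and 0.001.
Ltv1, chr10:13193092-13193121, minus strand: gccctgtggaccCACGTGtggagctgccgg
Nop2, chr6:125131811-125131840, plus strand: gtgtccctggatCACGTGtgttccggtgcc
Utp4, chr8:106893643-106893672, plus strand: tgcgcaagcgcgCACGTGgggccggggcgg
Rrn3, chr16:13780639-13780668, plus strand: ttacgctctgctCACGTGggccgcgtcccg
Rrn3 held a second E-box further upstream. The ETS-type motif CCGGAA, seen above for Nop58 and Nhp2, stood in 6 of the 10 and 8 of the 23, against 31.0% of tested genes. GC boxes (GGGCGG) stood in 7 of the 10 and 18 of the 23, against 67.2% of tested genes, and CCAAT in 5 of the 10 and 7 of the 23, against 43.1%. Some of these motifs can overlap, and a match describes letters only.

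Myc itself fell in B16F10, from 60.2, 59.6 and 60.1 CPM to 47.5, 46.7 and 52.2 CPM (log2 change -0.33 ± 0.06 SE, edgeR adjusted p = 0.00133). The HOCl libraries were all lower and HOCl replicate 3 was the highest of them. Of 10 tested genes of MYC, MAX and their partner factors, 5 rose and 2 fell, against 14.7% and 13.5% of all genes tested. Mxi1, a MAX partner that opposes MYC, rose from 33.9, 33.0 and 37.4 CPM to 49.8, 46.7 and 47.2 CPM, without overlap (log2 change 0.44 ± 0.06 SE, edgeR adjusted p = 0.000401). Mga, another MAX partner, rose from 35.2, 48.6 and 44.3 CPM to 56.8, 55.8 and 63.5 CPM (log2 change 0.43 ± 0.10 SE, edgeR adjusted p = 0.00792). The repressors Mxd1 and Mxd4 and the MLX partner Mlxip rose as well, by 0.42, 0.21 and 0.26 on the log2 scale. The other fall was Mxd3, a MAX partner expressed in dividing cells, with a log2 change of -0.42.

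Other genes of the pathway came from lists made for this comparison. For the RNA polymerase I and subunit lists the shares that rose and fell are to be read against the 14.7% and 13.5% of all genes tested, and those of the 2 subunit lists were near or below them. Of 10 further RNA polymerase I genes 3 rose and 2 fell: the promoter factor subunit Taf1c had a log2 change of 0.43 and the terminator Ttf1 one of 0.20, whereas Taf1d and Polr1d, a subunit shared with RNA polymerase III, had -0.31 and -0.25. Of 38 further small subunit factors 6 rose and 3 fell (median log2 change -0.04). Imp3, a protein of the early processome, went from 59.1, 45.4 and 46.02 CPM to 35.7, 40.1 and 34.4 CPM, the largest fall of that list (log2 change -0.48 ± 0.10 SE, edgeR adjusted p = 0.00482). Emg1, a methyltransferase, fell by 0.24, and Utp23 and the kinase Riok1 rose by 0.30 and 0.28 on the log2 scale.

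Of 40 further large subunit factors 3 rose and 5 fell, against 14.7% and 13.5% of all genes tested (median log2 change -0.04). Npm3, a relative of Npm1, and Ppan fell by 0.27 each, and the export GTPase Lsg1 and Urb1 rose by 0.25 and 0.20. Of 13 tested subunits and cofactors of the RNA exosome, which trims ribosomal RNA precursors, 4 fell and 0 rose (median log2 change -0.11). The shares of all genes tested were 13.5% and 14.7%. None of the 13 was higher at an unadjusted p under 0.05 or by DESeq2. Exosc8 was at 34.1, 33.4 and 30.2 CPM without and 25.1, 25.6 and 25.1 CPM with HOCl (log2 change -0.39 ± 0.07 SE, edgeR adjusted p = 0.000961), and Exosc7 fell by 0.31. RNA polymerase III makes the smallest ribosomal RNA and transfer RNA. Among the 16 genes of its list 3 rose and 2 fell, near the 14.7% and 13.5% of all genes tested. Log2 changes were -0.43 for Polr3gl, -0.18 for Gtf3c2, 0.25 for Polr3f and 0.22 for Polr3e.

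Of 13 genes of proliferation 12 fell, against 13.5% of all genes tested, with a median log2 change of -0.42. None of the 13 was higher at an unadjusted p under 0.05 or by DESeq2. The helicase subunit Mcm7 went from 198, 195 and 197 CPM to 129, 130 and 127 CPM (log2 change -0.64 ± 0.04 SE, edgeR adjusted p = 3.14e-06), and Mcm3 fell by 0.57. These falls stood beside those of the nucleolar genes in the same libraries, and their part in them was not tested. In fits that left out 1 library, Gtf3c2, Ttf1, Urb1, Riok1, Polr1d, Polr3e, Polr3f, Npm3, Taf1d, Mxd4 and Mlxip lost the call at least once. Npm3, Ttf1 and Urb1 also lost it with the length offset, and Gtf3c2 with DESeq2, without TMM scaling and without a filter. All calls named here for these lists were lost where both cell types shared 1 spread and against a 1.5-fold change.

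**Figure D4:**
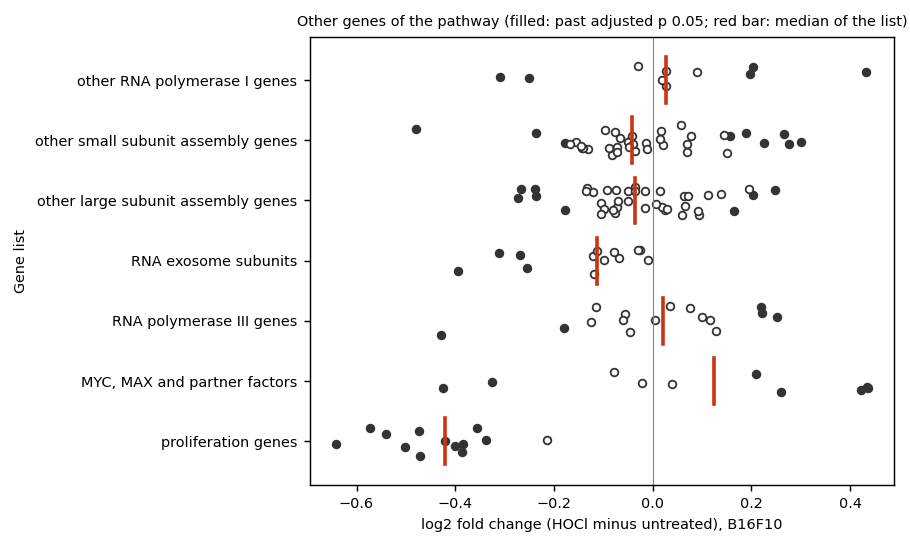
log2 fold change in B16F10 (HOCl minus untreated, x axis) of the tested genes of 7 further lists, with 1 point per gene, filled where the adjusted p was under 0.05, and a red bar at the median of each list. The proliferation genes lie left of 0 with a median of -0.42, the RNA exosome has a median of -0.11, and the other lists lie on both sides of 0.

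As a share of the library, untreated B16F10 cells had more mRNA for most of the 40 genes than untreated T cells. Of the 39 tested, 26 were higher in B16F10 and 1 was lower, against 35.8% and 35.4% of all 18352 genes tested with edgeR's quasi-likelihood test and Benjamini-Hochberg adjustment. The median log2 difference was 1.24, and -0.02 over all genes tested. Without TMM scaling these became 1.48 and 0.22, with 29 higher and 1 lower. These values are shares of each library, so amounts of RNA per cell were not measured. In bulk libraries fewer cells of a type and less RNA per cell cannot be told apart. The part of the B cell transcripts in the T cell values was not tested.

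The largest differences were those of Nop2 and Polr1a. Nop2 was at 29.96 and 33.7 CPM in T cells against 289 to 293 CPM in B16F10, which is 7.67-fold (log2 difference 2.94 ± 0.17 SE, edgeR adjusted p = 3.84e-05). Polr1a was at 38.5 and 25.1 CPM in T cells, 6.79-fold below B16F10 (log2 difference 2.76 ± 0.21 SE, edgeR adjusted p = 0.000104). Rrs1 was at 19.3 and 36.6 CPM in T cells, with a log2 difference of 2.32 ± 0.33 SE. By role, 16 of 21 assembly factors, 5 of 8 particle proteins, 3 of 5 RNA polymerase I genes and 2 of 5 scaffold proteins (Nolc1 and Mybbp1a) were higher in B16F10. Polr1b had a log2 difference of 2.22 and Nhp2 one of 2.05.

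Ubtf was the 1 gene that was lower in B16F10, at 309 and 275 CPM in T cells against 202 to 221 CPM (log2 difference -0.72 ± 0.14 SE, edgeR adjusted p = 0.00462). Per kilobase it had rank 3 in T cells and rank 12 in B16F10. Utp14a and Polr1c had negative differences of -0.54 and -0.55 that did not pass (edgeR adjusted p = 0.127 and 0.149). The T cell libraries disagreed there, with 29.4 and 50.6 CPM for Utp14a and 55.3 and 105 CPM for Polr1c. Npm1, at 751 and 1352 CPM in T cells, and Ncl, at 767 and 1039 CPM, had log2 differences of -0.10 and 0.40 that did not pass either. For Npm1 the T cell libraries lay further from each other than the means of the 2 cell types. Its log2 difference became -0.48 without T cell replicate 1 and 0.52 without T cell replicate 2. Each of these 2 fits left 1 T cell library, with no spread of its own, so calls from them are not given.

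Of the further lists, 12 of 13 proliferation genes were higher in B16F10 (median log2 difference 2.91), whereas 7 of 10 further RNA polymerase I genes were lower and none higher, against 35.4% and 35.8% of all genes tested. At an unadjusted p under 0.05 and by DESeq2 none of these 10 was higher either. Taf1c had a log2 difference of -2.10 and Ttf1 one of -1.65. Myc was higher in B16F10, at 59.6 to 60.2 CPM against 28.7 and 22.8 CPM in T cells (log2 difference 0.98, edgeR adjusted p = 0.00166). Of its 10 tested list members 2 were higher and 7 lower in B16F10, among them Mga at -2.20.

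**Figure D5:**
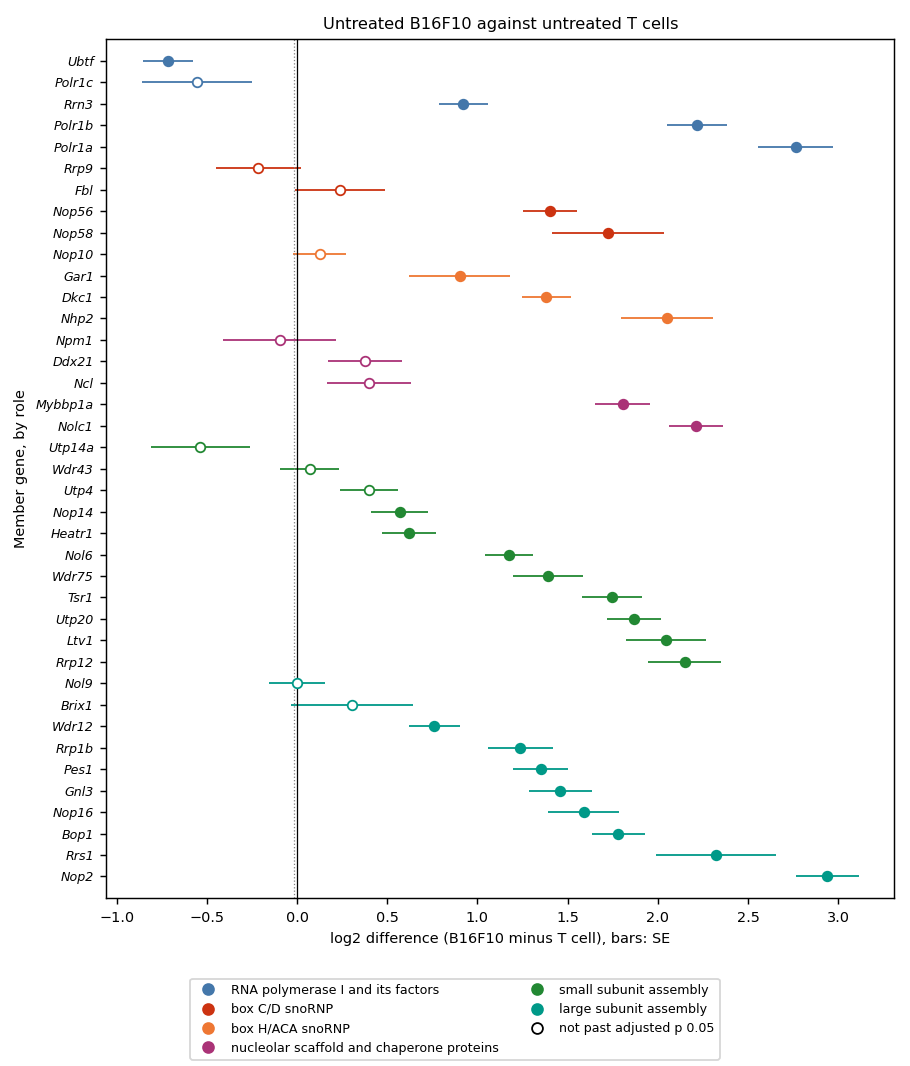
log2 difference (untreated B16F10 minus untreated T cells, x axis) of the 39 tested genes by role, with bars of 1 standard error; filled points passed an adjusted p of 0.05. Most points lie between 0.5 and 3 to the right of 0, and Ubtf is the filled point to the left at -0.72.

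In the library labelled T cell HOCl, the 40 genes took 0.311% of counts, against 0.344% and 0.458% in untreated T cells. Over the 39 genes other than Wdr74, the median ratio to the untreated mean was 1.11, with 22 of the 40 genes above both untreated libraries, 14 below both and 4 between. Over non-mitochondrial counts the median ratio was 1.74, with 30 above both and 2 below. The share of all genes in these positions is not given here, so the counts do not set the 40 genes apart from other genes. Npm1 was at 397 CPM (95% Poisson interval 386 to 408), below both untreated libraries at 751 and 1352 CPM, and Ncl was at 515 CPM (503 to 528). Rrp12 was at 74.8 CPM (70.1 to 79.7), above 11.8 and 15.1 CPM in untreated T cells, and beside 70.7 to 71.6 CPM in untreated B16F10. Over non-mitochondrial counts Rrp12 was at 120 CPM, against means of 13.7 CPM in untreated T cells and 71.5 CPM in untreated B16F10. The Poisson intervals cover counting error only, and other features of the same library stood beside these values. It had melanocyte transcripts at 6711 CPM, macrophage and granulocyte genes at 89.3 CPM against 8.41 and 11.1 CPM in untreated T cells, and fibroblast genes at 55.0 CPM against 1.02 and 1.21 CPM. It also had a count for 44225 genes, against 22855 and 25616 in the deeper untreated T cell libraries. The part of these features and that of treatment cannot be told apart from a single library.

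Within the bounds of 7 of the genes (Dkc1, Gnl3, Ncl, Nop56, Nop58, Tsr1 and Wdr43) GENCODE places 21 small nucleolar RNA genes. The 10 that overlap exons of their hosts were at 0 in all 9 libraries, and the other 11 had at most 32 counts in a library. Of the 40 genes 18 share exon bases with another annotated gene, most of all Tsr1 with 32.3% and Utp14a with 11.5% of its exon bases, both on the opposite strand. The strand setting of the counting is not given in the sources used here, so reads of such partners cannot be told apart.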

How the data were processed

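RNA-seq was analysed in 9 mouse libraries, each put in its group by its title. The authors deposited raw counts of reads per gene. STAR 2.7.1a, DESeq2 1.22.2, featureCounts 1.6.0, FastQC 0.11.8 and build mm10 are named in the submitters' processing notes. Annotation, strand setting and handling of multi-mapping reads: not given in the sources used here. The authors' deposited table of B16F10 gave log2 fold changes and adjusted p-values, copied with signs as deposited because its columns do not name the groups. Counts were matched by ID to GENCODE M21 (54809 of 54838 genes), which gave names, coordinates and the median length of principal transcripts.

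Each comparison was fitted over all genes with edgeR 4.0.16 (R 4.3.3): filterByExpr, TMM, robust quasi-likelihood F test and Benjamini-Hochberg adjustment, with a threshold of 0.05 and no set test. The 40 genes and all lists were chosen with earlier results of these data known. Every library's value is given, per role, for up to 2 called genes per direction with the largest change. It is also given for the gene of highest mean CPM per role and for the RNA polymerase I genes. The same holds for the 3 largest and 3 smallest differences between cell types. From each further list came up to 2 called genes per direction, and Myc; other genes are given by fold change or count. Scripts were tested on simulated data with a spread set in advance. For the HOCl comparison 36% of genes changed by 1.25-fold were called there, and 84% of those changed by 1.5-fold. That spread was the same for all genes and only 200 genes were changed, so these shares are not the power in the real libraries. In the real libraries a log2 change as small as -0.16 (Ltv1) passed. A gene that did not pass can still have changed by a small amount. Counts of replicates were compared and none agreed within sampling noise. Untreated B16F10 replicate 1 stood apart, with a chi-squared per degree of freedom of 23.2 and 21.2 against replicates 2 and 3. The other B16F10 pairs had 3.73 to 7.01, and the untreated T cell pair had 393. Same-numbered B16F10 libraries did not deviate together, so numbers were not taken as pairs. Alternatives were other scaling, filters, tests, sample sets and leaving out each library, plus a length offset chosen after seeing the data. Promoter sequences are RefSeq's (GRCm38.p6).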

Additional observations from a re-analysis of the deposited data

How the results depend on the processing

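In B16F10, the number of the 39 genes that rose (0) became 3 without TMM scaling, 1 with a filter of 1 CPM and 50 mean counts, 1 with DESeq2 and 1 with the length offset; with the replicate block it became 2, beside 14 that fell. The number that fell (13) was 0 when tested against a 1.5-fold change (glmTreat), 0 with all 9 libraries in 1 fit and 0 with 8. Over all genes these fits called 28 higher and 45 lower, 11 and 26, and 29 and 38, against 2366 and 2178. The median log2 change was -0.0019 without TMM scaling and -0.0787 with the length offset. Leaving out 1 library gave 0 to 3 risers, 6 to 14 fallers, 1605 to 2819 higher and 1410 to 2634 lower among all genes, and medians from -0.0564 to -0.0016. Between untreated cell types, the number lower in B16F10 (1) was 0 with glmTreat, 0 with the replicate block (23 higher) and 5 with the length offset. The median difference was 1.4753 without TMM scaling, 1.4017 without a filter, 1.0549 with the stricter filter and 0.8014 with the length offset. Leaving out 1 library gave medians from 1.1429 to 1.4645. Fits without a T cell replicate left 1 T cell library with no spread of its own, so their calls are not counted here. Npm1 ranged from -0.482 to 0.5207, the latter without T cell replicate 2, and Nol9 became -0.4491 with the length offset. In the T cell HOCl library, 2 genes lay below both untreated libraries over non-mitochondrial counts. The fits of 9 and 8 libraries share 1 spread with T cells, whose untreated libraries differed more; other causes were not tested. The replicate block rests on numbers alone: correlations of same-numbered B16F10 libraries were 0.04, 0.00 and 0.00. Wdr74 had too few counts to be tested.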
